A study of Lissachatina fulica and Mizuhopecten yessoensis with 12 samples.

Results

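Genes for chaperones and antioxidant enzymes were followed in the atria and ventricles of adult wild-type scallop (Mizuhopecten yessoensis, a bivalve) and giant African snail (Lissachatina fulica, a gastropod). They were taken as every row of the authors' gene table of either species whose gene symbol names a heat shock protein, a J protein, a chaperonin or prefoldin subunit, a BAG protein, a prolyl isomerase, a folding factor of the endoplasmic reticulum, a peroxiredoxin, a superoxide dismutase, catalase, a glutathione peroxidase, a thioredoxin-type protein or a methionine sulfoxide reductase, with DNAJC19 left out. This gave 41 of 4195 scallop rows, with 38 different symbols, and 23 of 1886 snail rows, with 20 different symbols, or 64 of 6081 rows in all. Symbols are names borrowed from other animals, and 12 of them occurred in both species. Each chamber of each species had 3 libraries, 12 in all, so the groups were scallop atrium, scallop ventricle, snail atrium and snail ventricle. The labels do not say whether the libraries came from separate animals, so the p-values speak only for how these libraries vary, and that variation may be technical.

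Chaperones bind unfolded proteins and help them fold. HSP70 proteins work with J proteins, which bring substrates and trigger the ATP cycle, while prefoldin hands new actin and tubulin to the ring-shaped CCT chaperonin. Prolyl isomerases turn the peptide bond before proline, and calreticulin, calnexin and the protein disulfide isomerases fold secreted and membrane proteins in the endoplasmic reticulum. Superoxide dismutases turn superoxide into hydrogen peroxide, which catalase, glutathione peroxidases and peroxiredoxins remove, and methionine sulfoxide reductases repair oxidized methionine. A beating heart respires heavily, so its mitochondria are a known source of superoxide. The roles given below are known from mammals and yeast and have not been tested in these molluscs here.

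The values are read counts per gene that the authors divided by 1 size factor per library, called normalized counts below. Reads on the listed genes ran from 10120508 to 21526834 per scallop library and from 606309 to 1165104 per snail library. The tables hold only genes that the authors had selected for a chamber difference, with an unadjusted p under 0.05 and at least about a 2-fold change, so every member had to differ, and the calls below describe direction, size and spread and are not independent evidence of a difference. Log2 fold changes compare atrium with ventricle (positive where the atrium is higher), were fitted to log2(normalized count + 1), and are given with SE. A gene passed with an adjusted p by limma (Benjamini-Hochberg over all tested rows of the species) under 0.05 and at least a 2-fold change. In scallop 87.6% of the 3927 tested rows passed, 42.0% on the atrial and 45.6% on the ventricular side. In snail 83.9% of the 1489 tested rows passed, 46.9% on the atrial and 37.0% on the ventricular side. The tropomyosin Tm2 and the troponin TNNT2, both muscle markers, were read in every library of both species. Of 9 tested muscle markers 1 passed toward the atrium and 7 toward the ventricle in scallop, with summed normalized counts of 359844 to 393331 in atria and at least 780504 in ventricles. Of 9 tested in snail 2 passed toward the atrium and 6 toward the ventricle, with sums of 12683 to 19568 in atria and 59129 to 106288 in ventricles. Of 24 tested neuron markers of scallop 21 passed toward the atrium and 2 toward the ventricle, with sums of 12846 to 14917 in atria and 5913 to 7797 in ventricles. Of 10 tested in snail 5 passed toward the atrium and 4 toward the ventricle. Their sums overlapped, at 727 to 1079 in atria and 555 to 874.5 in ventricles. What part cell makeup has in the results on chaperone and antioxidant genes was not tested. Because whole chambers were sequenced, fewer cells of a type and less RNA per cell cannot be told apart.

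In scallop hearts, the chaperone and antioxidant genes lay mostly on the ventricular side. Of the 41 members, all of which were tested, 3 passed toward the atrium (HSPA12A, CAT and a copy of GPX3), 30 passed toward the ventricle and 8 did not pass, against 42.0% toward the atrium and 45.6% toward the ventricle, 87.6% together, of all tested rows. The median log2 fold change of the members was −1.24, with quartiles of −1.47 and −1.09, and that of all tested rows was −1.01. The 3 atrial and 3 ventricular values did not overlap in 31 members, 3 with the atria above and 28 with the ventricles above. Of the 4195 listed rows 87.4% did not overlap, 42.3% with the atria above and 45.1% with the ventricles above. By the authors' deposited table, adjusted p was under 0.05 in 31 of the 41 members, against 68.4% of all listed rows. The 61 listed cytosolic ribosomal protein genes lay at much the same place, with a median log2 fold change of −1.17, none called toward the atrium and 58 called toward the ventricle. The number of ventricular calls depended on how the libraries were scaled. The 3 other scalings were computed on the listed rows alone, all selected for a chamber difference, so they cannot show which scale is right. A further TMM scaling left 3 atrial and 8 ventricular calls, so 19.5% of the members passed toward the ventricle, against 16.0% of all tested rows. Quantile normalization left 1 and 12, with the direction of PFDN6 turned, and 29.3% of the members passed toward the ventricle, against 28.8% of all tested rows. On these scales the members' share of ventricular calls was therefore near that of all rows. Their share of atrial calls stayed below it, at 7.32% against 44.0% with TMM and 2.44% against 24.8% with quantile normalization. Bringing the ribosomal protein genes of all libraries to 1 median level (the ribosomal rescaling) left 3 and 0, with the direction turned in 15 members. Those genes were themselves listed with higher ventricular values, so this rescaling had to raise the log2 fold changes. Lost calls and turned directions on that scale are thus not independent evidence about the members. On that scale 1.53% of all tested rows passed toward the ventricle. Toward the atrium 7.32% of the members passed, against 44.3% of all tested rows. Over all tested rows, the share of calls on the atrial side was 47.9% as deposited. It was 73.3% with TMM, 46.3% with quantile normalization and 96.7% with the ribosomal rescaling.

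**Figure D1:**
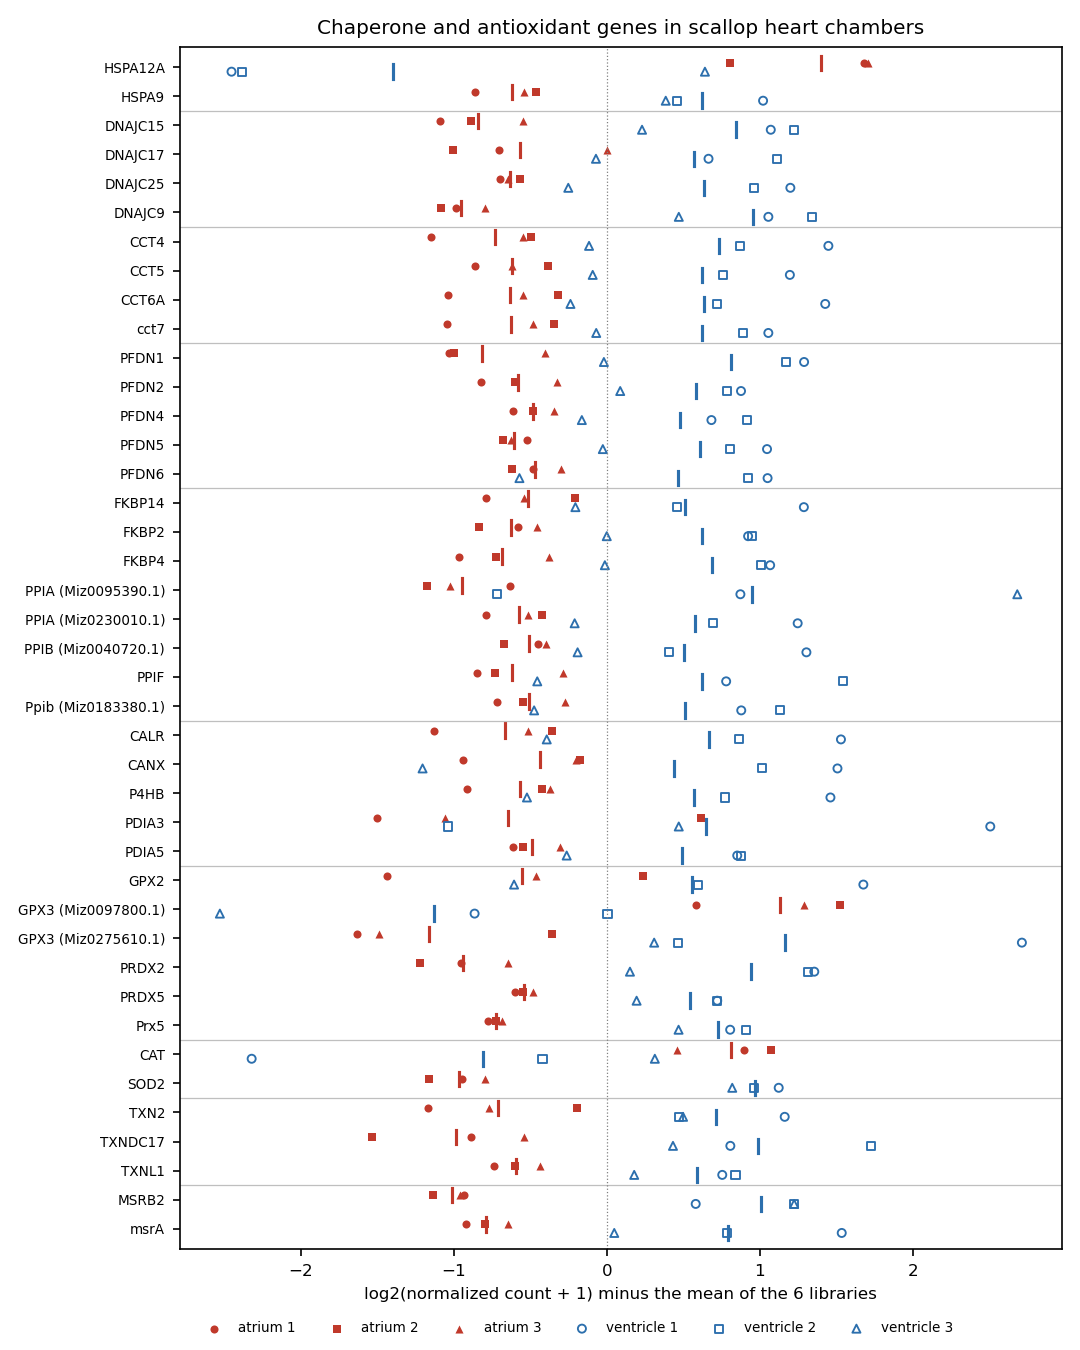
Level of each of the 41 scallop members in every library, as log2(normalized count + 1) minus the mean of its 6 libraries; filled red symbols are atria, open blue symbols ventricles, short bars the chamber means, and grey lines separate the roles. Most members have all 3 ventricles to the right of the atria, with ventricle 3 usually nearest to them, while HSPA12A, CAT and GPX3 (Miz0097800.1) lie the other way round.

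The HSP70 family had 2 listed members in scallop, and they lay on opposite sides. HSPA9, the HSP70 of the mitochondrial matrix, which pulls imported proteins through the inner membrane, had 7214, 9501 and 9008 normalized counts in atria 1 to 3 and 26607, 18047 and 17119 in ventricles 1 to 3. Every ventricle stood above every atrium, at a log2 fold change of −1.24 ± 0.31 (adjusted p by limma = 0.00864). HSPA12A, a distant HSP70 relative, had 872, 475 and 887 in atria and 48.7, 51.1 and 423 in ventricles. Its log2 fold change of 2.80 ± 0.76 (adjusted p by limma = 0.0116) was the largest toward the atrium among the scallop members, and it passed under all 16 alternative settings. Ventricle 3 lay far above the other ventricles, and the log2 fold change was 3.82 without it.

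All 4 J proteins of the scallop list passed toward the ventricle, against 45.6% of all tested rows. Only DNAJC17 turned direction under any scaling, the ribosomal one. DNAJC15, a J protein of the mitochondrial inner membrane that acts with the mitochondrial HSP70, had 919, 1057 and 1336 normalized counts in atria and 4112, 4570.0 and 2294 in ventricles, a log2 fold change of −1.68 ± 0.36 (adjusted p by limma = 0.00491). DNAJC9, which also chaperones histones, stood at 82.8, 77.4 and 94.4 in atria and 344, 419.6 and 229 in ventricles, a log2 fold change of −1.91 ± 0.45 (adjusted p by limma = 0.00732). The groups did not overlap in either gene, and both calls held in 15 of 16 alternative settings, all but the ribosomal rescaling. The DNAJC25 call was lost in 8 of 16, among them 5 of the 6 that left out 1 library. DNAJC25 had a mean of 466 ± 21.4 in atria and 1227 ± 551 in ventricles (SD, n = 3 each), and DNAJC17 stood at 125, 101 and 204 in atria and 324, 442 and 194 in ventricles. The chambers overlapped for DNAJC17, whose ventricle 3 (194) lay below atrium 3 (204), and its call was lost in 10 of 16 alternative settings.

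Listed subunits of the cytosolic chaperonin and of prefoldin, which together fold actin and tubulin, lay on the ventricular side. The chaperonin subunits CCT4, CCT5, CCT6A and cct7 all passed toward the ventricle, against 45.6% of all tested rows. Their log2 fold changes lay between −1.47 and −1.24. They kept that direction but not the call under each of the 3 other scalings. CCT4 had 4561, 7170.4 and 6922 normalized counts in atria and 27645, 18490.4 and 9347 in ventricles (adjusted p by limma = 0.0128). CCT5 had 5765, 8019.6 and 6810.1 in atria and 23968, 17679.9 and 9810.0 in ventricles (adjusted p by limma = 0.0151). In each of the 4 subunits ventricle 3 was the lowest ventricle and atrium 1 the lowest atrium, yet no ventricle reached down to an atrium. Of the 5 prefoldin subunits PFDN1, PFDN2 and PFDN5 passed toward the ventricle, against 45.6% of all tested rows. The direction of all but PFDN1 turned after the ribosomal rescaling. PFDN1 had the largest difference, at 944, 969 and 1458 in atria and 4729, 4349 and 1909 in ventricles, a log2 fold change of −1.63 ± 0.40 (adjusted p by limma = 0.00891). PFDN2 had a log2 fold change of −1.17 and PFDN5 one of −1.22. PFDN4, at −0.96, missed the 2-fold limit (adjusted p by limma = 0.0283). PFDN6 stood at 12538, 11381 and 14216 in atria and 36244, 33143 and 11776 in ventricles, with ventricle 3 inside the atrial range, and did not pass (adjusted p by limma = 0.0567).

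Among 8 scallop prolyl isomerase rows, 6 passed toward the ventricle, against 45.6% of all tested rows. FKBP14, a PPIA copy (Miz0230010.1) and both PPIB copies turned direction after the ribosomal rescaling. FKBP4, a co-chaperone of HSP90, had the largest called difference, with 1986, 2349 and 2991 normalized counts in atria and 8131, 7811 and 3845 in ventricles, a log2 fold change of −1.38 ± 0.37 (adjusted p by limma = 0.011). This PPIA copy, the cytosolic cyclophilin A, had 7132, 9191 and 8607 in atria and 29249, 19901 and 10648 in ventricles (log2 fold change −1.15), and its call was lost in 8 of 16 alternative settings. FKBP2, an isomerase of the endoplasmic reticulum, had a log2 fold change of −1.25, and PPIF, the mitochondrial cyclophilin that regulates the permeability transition, one of −1.24. The groups overlapped for PPIF, whose ventricle 3 (3158) lay below atrium 3 (3549), and its call was lost in 8 of 16 alternative settings. The PPIB copies, cyclophilins of the secretory pathway, had log2 fold changes of −1.01 (Miz0040720.1) and −1.02 (Ppib, Miz0183380.1), just past the 2-fold limit, and each call was lost in 9 of 16 alternative settings. FKBP14, another isomerase of the endoplasmic reticulum, did not pass, at 160.0, 239.7 and 190.3 in atria and 678, 380.5 and 240.2 in ventricles (adjusted p by limma = 0.0589). A second PPIA copy (Miz0095390.1) had only 3.25, 1.91 and 2.23 in atria and 11.1, 3.01 and 41.3 in ventricles, and did not pass (adjusted p by limma = 0.0882).

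Folding factors of the endoplasmic reticulum in scallop had a ventricle 3 at or near the atrial level. CALR (calreticulin), which binds calcium and folds glycoproteins, had 19793, 33786 and 30216 normalized counts in atria and 124926, 78751 and 32944 in ventricles, a log2 fold change of −1.33 ± 0.47 (adjusted p by limma = 0.0255). P4HB, a protein disulfide isomerase, had 12875, 18117 and 18740.1 in atria and 66848, 41417 and 16902 in ventricles, a log2 fold change of −1.14 ± 0.47 (adjusted p by limma = 0.0399). These 2 of the 5 members passed toward the ventricle, against 45.6% of all tested rows, P4HB with its direction turned after the ribosomal rescaling. Ventricle 3 lay within the atrial range in both. CANX (calnexin), the membrane-bound partner of calreticulin, stood at 1151, 1964 and 1923 in atria and 6294, 4477 and 960.0 in ventricles, with ventricle 3 below every atrium, and did not pass (adjusted p by limma = 0.179). PDIA3, a glycoprotein-specific disulfide isomerase, stood at 495, 2150.1 and 673 in atria and 7966, 683 and 1942 in ventricles and did not pass, with the chambers overlapping. PDIA5, at a log2 fold change of −0.98, missed the 2-fold limit. The calls of CALR and P4HB were each lost in 9 of 16 alternative settings, among them 5 of the 6 that left out 1 library. Of these 6, the setting without ventricle 3 kept both calls, with log2 fold changes of −1.86 for CALR and −1.69 for P4HB.

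The peroxide-removing enzymes of scallop were mostly higher in the ventricle, with a GPX3 copy on the other side and PRDX5 and GPX2 turning direction after the ribosomal rescaling. Prx5, a peroxiredoxin of mitochondria and peroxisomes, had 19668, 20373 and 20967 normalized counts in atria, which varied little, and 58854, 63142 and 46586 in ventricles (log2 fold change −1.45 ± 0.29, adjusted p by limma = 0.00409). A second row, PRDX5, had 525, 543 and 569 in atria and 1312, 1308 and 910.2 in ventricles (log2 fold change −1.09 ± 0.33, adjusted p by limma = 0.0165). PRDX2, a cytosolic peroxiredoxin, had 1681, 1395 and 2083 in atria and 8335, 8095 and 3616 in ventricles. Its log2 fold change of −1.88 ± 0.38 (adjusted p by limma = 0.00424) held in 15 of 16 alternative settings. The GPX3 copies, named for a secreted glutathione peroxidase, went opposite ways. Copy Miz0097800.1 had 137, 265 and 224 in atria and 49.8, 91.7 and 15 in ventricles (log2 fold change 2.26 ± 0.68, adjusted p by limma = 0.016). Copy Miz0275610.1 had 7.31, 19.1 and 8.18 in atria and 168, 34.6 and 31 in ventricles (log2 fold change −2.32 ± 0.81, adjusted p by limma = 0.0243). Neither pair of groups overlapped, although ventricle 1 stood far above the other ventricles in the second copy. The call of the second copy was lost in 5 of 16 alternative settings, among them those without ventricle 1 (log2 fold change −1.55, adjusted p by limma = 0.0893), without atrium 1 and without atrium 3. GPX2, named for a cytosolic glutathione peroxidase, did not pass, at 141, 451 and 278 in atria and 1228, 579 and 251 in ventricles (adjusted p by limma = 0.104).

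The enzymes at either end of the superoxide-to-water path lay on opposite sides in scallop. SOD2, the manganese superoxide dismutase of the mitochondrial matrix, had 3406, 2929 and 3769 normalized counts in atria and 14279, 12759.5 and 11569 in ventricles. The chambers were far apart and the libraries within a chamber close together, at a log2 fold change of −1.94 ± 0.28, with the lowest p of the scallop members (adjusted p by limma = 0.001). CAT, catalase, which breaks down hydrogen peroxide in peroxisomes, had 245, 277 and 181 in atria and 25.4, 97.7 and 163 in ventricles. Every atrium stood above every ventricle, but narrowly against ventricle 3, and the log2 fold change was 1.62 ± 0.66 (adjusted p by limma = 0.0403). The CAT call was lost in 8 of 16 alternative settings, and its direction turned in none.

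Thioredoxin-type proteins and methionine sulfoxide reductases of scallop all passed toward the ventricle, against 45.6% of all tested rows. Of these, TXNL1 turned direction after the ribosomal rescaling. TXN2, the mitochondrial thioredoxin, had 182, 358 and 239 normalized counts in atria and 918, 568 and 579 in ventricles (log2 fold change −1.42 ± 0.42, adjusted p by limma = 0.0144). TXNDC17, a small cytosolic thioredoxin relative, had 370.3, 236 and 471 in atria and 1201, 2275 and 926 in ventricles (log2 fold change −1.98 ± 0.44, adjusted p by limma = 0.00581). TXNL1, a thioredoxin that sits on the proteasome, had a log2 fold change of −1.18 ± 0.33. MSRB2, a mitochondrial methionine sulfoxide reductase, had 899, 784 and 886 in atria and 2575, 4018 and 4023 in ventricles. Here ventricle 3 stood level with the highest ventricle, at a log2 fold change of −2.02 ± 0.32 (adjusted p by limma = 0.00143). The enzyme for the other methionine sulfoxide form, msrA, had 408, 445 and 494 in atria and 2248, 1335 and 801 in ventricles (log2 fold change −1.58 ± 0.41, adjusted p by limma = 0.0107).

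The scallop members differed among themselves in where ventricle 3 lay. For each gene called toward the ventricle, its place was measured as the share of the log2 distance from the mean of ventricles 1 and 2 down to the atrial mean. The median was 60.5% over the 30 called members, 41.8% over all 1792 rows called toward the ventricle and 64.7% over the 58 ribosomal protein genes called. The 8 members of mitochondria had a median of 25.3%, the 12 cytosolic members 61.6% and the 5 of the secretory pathway 85.3%, while 5 more had no compartment assigned. These compartments are the ones known for mammalian proteins of the same name, and the grouping was made after the values had been seen, so no test was made. Of the mitochondrial members MSRB2 stood at −16.9%, SOD2 at 11.1%, TXN2 at 20.9%, Prx5 at 24.5% and HSPA9 at 26.1%. PRDX5 at 41.5% and DNAJC15 at 46.1% lay near the median of all rows called toward the ventricle, and PPIF at 90.6% far above it. Of the secretory pathway members FKBP2 stood at 60.0%, near the cytosolic median, and PPIB (Miz0040720.1) at 76.8%. CALR stood at 85.3%, P4HB at 97.2% and Ppib at 97.7%. Ventricle 3 was the lowest ventricle in 28 of the 30 called members, against 77.1% of all rows called toward the ventricle. Without it 36 members passed toward the ventricle and 3 toward the atrium, at a median log2 fold change of −1.58. Without ventricle 1 the counts were 18 and 2, at a median of −1.02, without atrium 1 they were 13 and 2, at a median of −1.11, and without atrium 2 they were 19 and 1, at a median of −1.32. Calls over all 3927 tested rows moved too, from 3440 with every library to 3483 without ventricle 3 and 2353 without ventricle 1. They numbered 1877 without atrium 1 and 1808 without atrium 2. The atrial share of these calls was 47.9%, 44.9%, 49.6%, 51.6% and 47.9% in the same order.

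**Figure D2:**
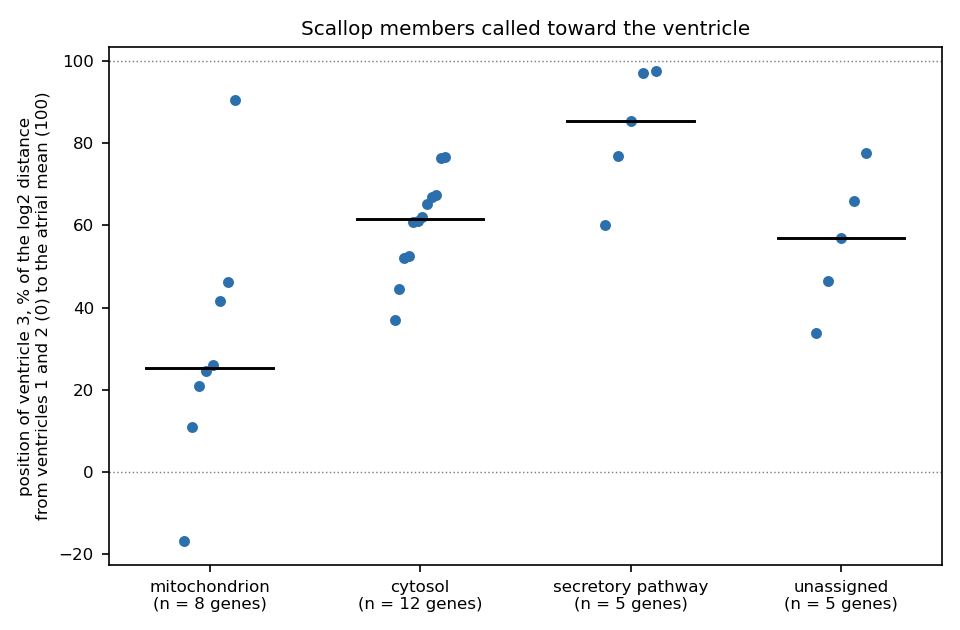
Place of scallop ventricle 3 for each of the 30 members called toward the ventricle, as a percentage of the log2 distance from the mean of ventricles 1 and 2 (0) to the atrial mean (100), by the compartment of the mammalian protein or unassigned; points are genes and black bars medians. The medians are 25.3% for mitochondrial, 61.6% for cytosolic and 85.3% for secretory pathway members.

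Genes that work with these proteins, from lists chosen by role, mostly lay on the same side in scallop, read on the deposited scale alone. Of all tested rows 42.0% passed toward the atrium and 45.6% toward the ventricle, at a median log2 fold change of −1.01. Of 19 co-chaperone and protein quality genes 2 passed toward the atrium and 16 toward the ventricle, with a median log2 fold change of −1.12. Among those toward the ventricle were NACA, a subunit of the complex that meets new chains at the ribosome, at 8973 ± 1585 in atria and 21557 ± 7326 in ventricles (mean ± SD of normalized counts, n = 3 each), and a copy of CLPP, the mitochondrial protease, with a log2 fold change of −1.57. Of 6 listed genes of the endoplasmic reticulum 1 passed toward the atrium and 4 toward the ventricle. ATF4, a transcription factor of the stress response to unfolded proteins, had 50023, 68005 and 50969.7 normalized counts in atria and 222065, 124816 and 87242 in ventricles. XBP1, another such factor, had 17104, 19585 and 20026 in atria and 80524, 78820.2 and 42627 in ventricles, and neither gene's chambers overlapped. Of 16 glutathione and redox genes 1 passed toward the atrium and 14 toward the ventricle (median −1.26), including the glutaredoxin GLRX5 at 733 ± 60.2 in atria and 2891 ± 1113 in ventricles. MGST1, a microsomal glutathione transferase, stood at 1030.2 ± 116 in atria and 4306 ± 2134 in ventricles. The atrial gene was GGT1, a gamma-glutamyltransferase, at 91.1 ± 29.5 in atria and 33.3 ± 21.3 in ventricles. Rows named hsp-25 and hsp70 do not match the rule for members and were picked after their values were seen. An hsp-25 copy (Miz0157050.1) passed toward the ventricle (−1.99), the other (Miz0061310.1) lay at −0.98 and missed the 2-fold limit, and hsp70 passed toward the atrium (1.56), with 1605, 1590.3 and 1087 in atria and 183, 608 and 962 in ventricles.

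In snail hearts, chaperone and antioxidant genes were found on either side. Of the 23 members 20 had a mean normalized count of at least 10 and were tested: 5 passed toward the atrium, 11 toward the ventricle and 4 did not pass, against 46.9% toward the atrium and 37.0% toward the ventricle, 83.9% together, of all tested rows. Mitochondrial SOD2, Prx5, HSPA9 and HSPE1 were higher in the ventricle, whereas catalase, SOD3 and 3 proteins of the secretory pathway were higher in the atrium. PDIA5 (Afu023069), also of the secretory pathway, was higher in the ventricle. The median log2 fold change was −1.23 over the tested members and 1.22 over all tested rows. Over all 23 members, 8 had atrial values that did not overlap with lower ventricular ones and 11 the reverse, against 51.6% and 34.4%, 85.9% together, of the listed rows. By the authors' deposited table, adjusted p was under 0.05 in 16 of the 23, against 67.4% of all listed rows. With the further TMM scaling 6 passed toward the atrium and 9 toward the ventricle, against 49.3% and 28.4% of all tested rows. With quantile normalization 3 and 13 passed, against 20.6% and 39.8%, with the direction of HSPA13 turned. Over all tested rows 55.9% of the calls were on the atrial side as deposited, 63.4% with TMM and 34.1% with quantile normalization.

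**Figure D3:**
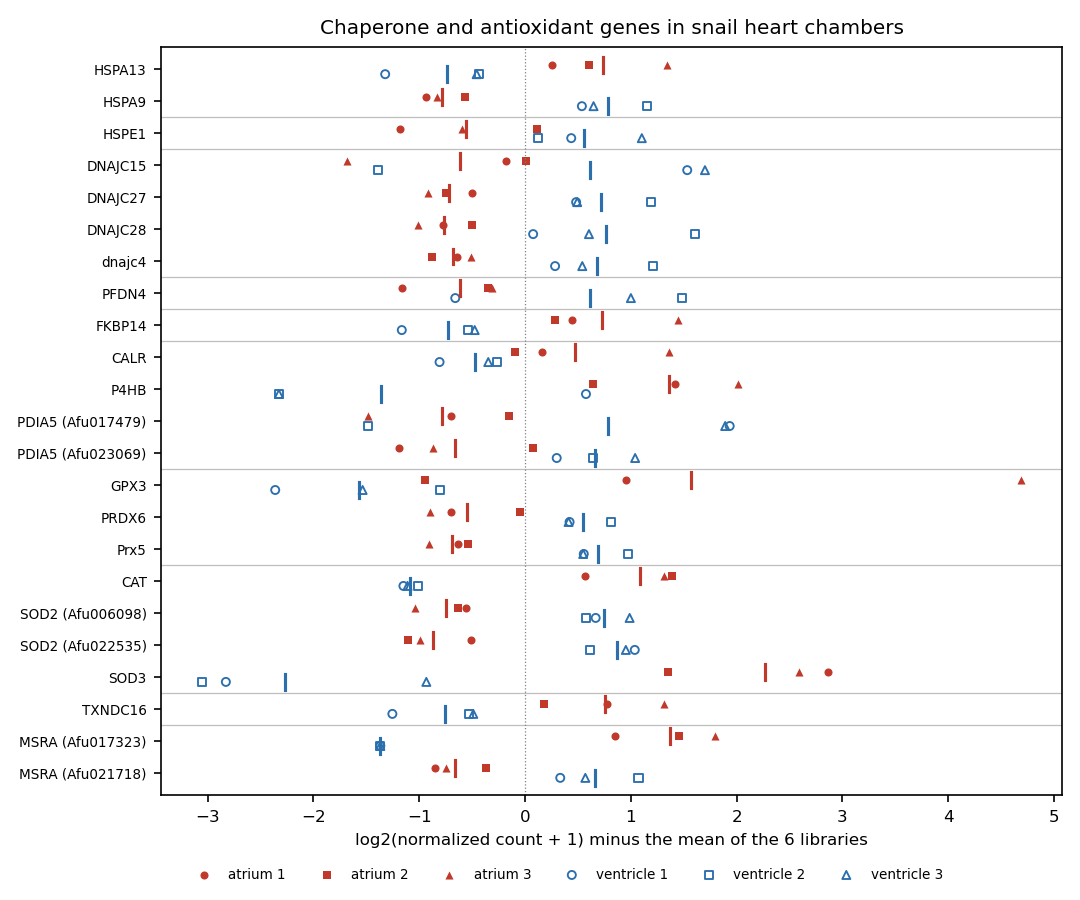
Level of each of the 23 snail members in every library, as log2(normalized count + 1) minus the mean of its 6 libraries; filled red symbols are atria, open blue symbols ventricles, short bars the chamber means, and grey lines separate the roles. SOD2, Prx5 and HSPA9 lie to the right in all ventricles and CAT and SOD3 in all atria, and atrium 3 stands out in GPX3, CALR and FKBP14.

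Catalase and the extracellular superoxide dismutase were the clearest atrial members in snail. CAT had 389.7, 688 and 652 normalized counts in atria and 118, 129.8 and 121 in ventricles, so the ventricles varied little and lay well below every atrium (log2 fold change 2.18 ± 0.28, adjusted p by limma = 0.00122). SOD3, named for the secreted copper-zinc superoxide dismutase, had 163, 56.1 and 134 in atria and 2.16, 1.71 and 10.7 in ventricles. At 4.54 ± 0.69 (adjusted p by limma = 0.00222) it had the largest log2 fold change of the snail members toward the atrium. GPX3 had 19.7, 4.55 and 275 in atria and 1.08, 5.12 and 2.69 in ventricles and did not pass (adjusted p by limma = 0.0636), with atrium 2 at the ventricular level and atrium 3 far above the others. The calls of CAT and SOD3 held in all 15 alternative settings.

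Mitochondrial antioxidant genes of snail stood on the ventricular side. SOD2 copy Afu006098 had 480.2, 456 and 344 normalized counts in atria and 1126, 1059 and 1407 in ventricles. Copy Afu022535 had 256, 168 and 183 in atria and 749, 560.2 and 707 in ventricles. No atrium reached a ventricle in either copy, with log2 fold changes of −1.49 ± 0.23 and −1.74 ± 0.25 (adjusted p by limma = 0.00222 and 0.0019). Prx5 had 1748, 1858 and 1444 in atria and 3979.7, 5322 and 3965 in ventricles (log2 fold change −1.39 ± 0.21, adjusted p by limma = 0.00222). PRDX6, a cytosolic peroxiredoxin, had 118, 185 and 102 in atria and 257, 338 and 255 in ventricles (log2 fold change −1.10 ± 0.29, adjusted p by limma = 0.0137). An MSRA copy (Afu021718) had 296, 414 and 318 in atria and 676, 1129 and 797 in ventricles (log2 fold change −1.32 ± 0.27, adjusted p by limma = 0.00541). The other MSRA copy (Afu017323) had 3.65, 6.07 and 7.98 in atria and 0 in every ventricle and lay below the level tested.

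The 6 mitochondrial and J-domain chaperones of snail also had higher mean values in the ventricle, and 5 passed toward it, against 37.0% of all tested rows. HSPA9 had 78.8, 102 and 84.4 normalized counts in atria and 220.3, 338 and 238 in ventricles (log2 fold change −1.56 ± 0.26, adjusted p by limma = 0.00294). HSPE1, the lid of the mitochondrial chaperonin, had 30.7, 76.6 and 46.5 in atria and 96.1, 76.9 and 153 in ventricles. Ventricle 2 and atrium 2 nearly met, and this call (log2 fold change −1.11 ± 0.43, adjusted p by limma = 0.0432) was lost in 8 of 15 alternative settings. The J proteins DNAJC28, dnajc4 and DNAJC27 passed in all 15. DNAJC28 had 190.5, 231 and 162 in atria and 345, 1003 and 498 in ventricles, with ventricle 2 far above the others (log2 fold change −1.53 ± 0.41, adjusted p by limma = 0.0132). The log2 fold changes of dnajc4 and DNAJC27 were −1.35 and −1.44. DNAJC15 stood at 13.1, 15.2 and 3.99 in atria and 45.3, 5.12 and 51.1 in ventricles and did not pass (adjusted p by limma = 0.231). The prefoldin subunit PFDN4 did not pass either, at 7.3, 13.6 and 14 in atria and 10.8, 51.2 and 36.3 in ventricles (adjusted p by limma = 0.0999).

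Of 7 secretory pathway members of snail 5 had higher mean values in the atrium, as did 1184 of all 1886 listed rows. Of the 5 tested 3 passed toward the atrium and 1 toward the ventricle, against 46.9% and 37.0% of all tested rows. The compartments were assigned after the values had been seen. FKBP14 had 41.6, 37.2 and 84.4 normalized counts in atria and 13, 20.5 and 21.5 in ventricles (log2 fold change 1.45 ± 0.42, adjusted p by limma = 0.0179). TXNDC16, a thioredoxin-domain protein of the endoplasmic reticulum, had 69.3, 45.5 and 101 in atria and 16.2, 27.3 and 28.2 in ventricles (log2 fold change 1.52 ± 0.40, adjusted p by limma = 0.0132). HSPA13, an HSP70 relative of microsomes, had 11.7, 15.2 and 25.9 in atria and 3.24, 6.83 and 6.72 in ventricles (log2 fold change 1.48 ± 0.55, adjusted p by limma = 0.0384), and its call was lost in 6 of 15 alternative settings. CALR stood at 2872, 2404 and 6606 in atria and 1469, 2138 and 2022 in ventricles. Every atrium was above every ventricle, but the log2 fold change of 0.95 ± 0.40 did not pass (adjusted p by limma = 0.0568). P4HB, below the level tested, had 12.4, 6.82 and 19.3 in atria and 6.48, 0 and 0 in ventricles. PDIA5, a protein disulfide isomerase, went the other way in copy Afu023069, with 19, 47 and 23.9 in atria and 55.1, 70 and 92.7 in ventricles (log2 fold change −1.32 ± 0.41, adjusted p by limma = 0.0227). This call was lost on leaving out any of atrium 1, atrium 3, ventricle 2 and ventricle 3. The other PDIA5 copy (Afu017479) was below the level tested, at 0.73, 1.52 and 0 in atria and 9.72, 0 and 9.41 in ventricles.

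Atrium 3 was the highest atrium in 5 of the 7 secretory pathway members of snail, against 776 of all 1886 listed rows. Among rows called toward the atrium it was highest in all 3 such members, against 321 of all 698 rows. Hemocyte markers, a list of 12 rows of complement, Toll-like receptor, lectin, CD109 and RUNX1 type, stood higher in the atria too: their summed normalized counts were 5405, 6982 and 14263 in atria and 387, 722 and 396 in ventricles. Without MRC1, which held most of the sum of atrium 3, they were 2713, 6891 and 4563 in atria and 198, 333 and 215 in ventricles, so that atrium 2 was highest. Of 11 tested, 7 passed toward the atrium and none toward the ventricle, against 46.9% and 37.0% of all tested rows. Atrium 3 was the highest atrium in 9 of the 12, against the 776 of all 1886 listed rows. MRC1, a lectin-type receptor picked after its values were seen, had 2692, 91 and 9699.8 in atria and 189, 389 and 181 in ventricles and did not pass. The complement-like C1QL3 had 83.2, 1.52 and 612 in atria and 0 in every ventricle. Both had the same order of atria as GPX3, whereas CAT was highest in atrium 2 and SOD3 in atrium 1. Atrium 2, the lowest in GPX3, was the lowest atrium in 7 of the 12 hemocyte rows and in 873 of all 1886 listed rows. An order of 3 libraries shared with picked rows cannot show a shared source. The part of hemocytes in the atrial levels of GPX3, SOD3, CAT and the secretory pathway members was not tested. Without atrium 3 the snail calls were 3 toward the atrium and 8 toward the ventricle: FKBP14 and HSPA13 no longer passed, while CAT, SOD3 and TXNDC16 did. Without ventricle 1 they were 3 and 11, with the same 2 atrial calls lost. Calls over all tested snail rows fell too, from 1249 with every library to 961 without atrium 3 and 1030 without ventricle 1. The atrial share of these calls was 55.9%, 52.1% and 53.1% in the same order. In scallop, of 8 tested rows of the hemocyte list 3 passed toward the atrium and 5 toward the ventricle, against 42.0% and 45.6% of all tested rows. Their summed normalized counts were 19110.5, 27571 and 21722 in atria and 12662, 9588 and 8905 in ventricles. Most of the atrial sums came from C5, at 13291, 14808 and 15299, and RUNX1, at 4495, 11519 and 4912. The list takes rows by symbol, so it also held C1QBP, among the 5 toward the ventricle.

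The partner lists of snail were short. Of 11 glutathione and redox genes 3 passed toward the atrium and 7 toward the ventricle, against 46.9% and 37.0% of all tested rows. Among the ventricular genes were AIFM1, a flavoprotein of the intermembrane space, at 649.9 ± 76.3 normalized counts in atria and 1883 ± 538 in ventricles (mean ± SD, n = 3 each), and IDH2, which makes mitochondrial NADPH, at 1111 ± 219 in atria and 2764 ± 732 in ventricles. A GGT1 copy was higher in the atrium, at 378 ± 33.7 against 90.8 ± 16.2 in ventricles. Of the listed genes of the endoplasmic reticulum 5 were found and 3 tested. ERP29, a folding factor of that compartment, passed toward the atrium, with 172, 203 and 334 in atria and 85.3, 95.6 and 134 in ventricles. SIL1, a nucleotide exchange factor for its HSP70, did too, with 45.3, 48.5 and 79.8 in atria and 29.2, 10.2 and 24.2 in ventricles. SELENOM, a selenoprotein, passed toward the ventricle. CRYAB, named for the small heat shock protein alpha-B crystallin, had 209, 232 and 104 in atria and 34.5, 44.4 and 39 in ventricles (log2 fold change 2.11). TRAP1, the mitochondrial HSP90, also picked after its values were seen, had a log2 fold change of −0.995, which missed the 2-fold limit.

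Comparing the chamber differences of the species by symbol, 11 of the 12 shared symbols could be tested with a species by chamber interaction, in which 23.5% of the 328 shared symbols tested passed. SOD2, Prx5, HSPA9 and MSRA (snail copy Afu021718) passed toward the ventricle in both species, and CAT toward the atrium in both. Their scallop minus snail differences of log2 fold change were −0.45 ± 0.30 for SOD2, −0.07 ± 0.29 for Prx5, 0.31 ± 0.35 for HSPA9, −0.26 ± 0.48 for MSRA and −0.56 ± 0.76 for CAT (SE). None of these passed, which does not show that they were equal, and HSPA9 did pass under quantile normalization and the ribosomal rescaling, and Prx5, with its sign turned, under the ribosomal rescaling. FKBP14 and CALR passed, with opposite directions in scallop and snail. Every listed row had at least about a 2-fold change in its own species, so opposite listed directions had to give a large interaction. These interaction calls are thus a description and not independent evidence. The interaction was −2.48 ± 0.70 for FKBP14 (adjusted p by limma = 0.0156), with −1.03 in scallop and 1.45 in snail, and −2.28 ± 0.63 for CALR (adjusted p by limma = 0.0139), with −1.33 in scallop and 0.95 in snail. Both calls were lost when the scallop libraries were rescaled to equal ribosomal medians, and FKBP14 also under quantile normalization and without snail atrium 3. P4HB had the same pair of directions by its values but was below the level tested in snail. GPX3, PDIA5, PFDN4 and DNAJC15 had fitted log2 fold changes of the same sign in both species and no interaction that passed, although PDIA5 passed under the ribosomal rescaling and PFDN4 under quantile normalization. The symbol GPX3 was read from its scallop copy Miz0097800.1 here, the one with the higher mean. The other snail copy of MSRA (Afu017323) was read only in atria and lay below the level tested.

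**Figure D4:**
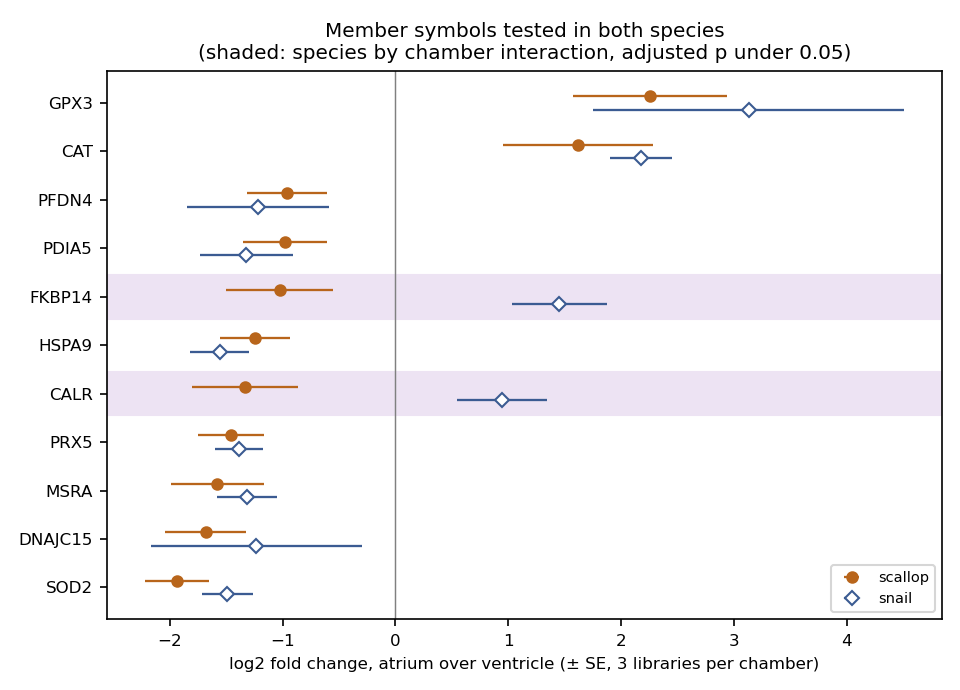
Log2 fold change of atrium over ventricle (± SE) for the 11 member symbols tested in both species, with scallop as filled circles and snail as open diamonds; 3 libraries per chamber and species. SOD2, DNAJC15, MSRA, Prx5, HSPA9, PDIA5 and PFDN4 lie left of 0 in both species and CAT and GPX3 right of it, while CALR and FKBP14 (shaded) lie on opposite sides.

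The scaling of the libraries moved the median of the scallop members further than that of the snail members. The median log2 fold change of the scallop members was −1.24 as deposited, −0.77 with TMM, −0.57 with quantile normalization and −0.016 with the ribosomal rescaling, while that of all tested rows was −1.01, −0.54, −0.36 and 0.21 in the same order. The members' median lay below that of all rows in each case. SOD2, MSRB2, PRDX2, DNAJC9, DNAJC15, TXNDC17, msrA and PFDN1 still passed toward the ventricle with TMM and with quantile normalization alike. After the ribosomal rescaling their log2 fold changes were between −0.79 (MSRB2) and −0.35 (msrA), and none passed. HSPA9 lay at −0.016 and Prx5 at −0.23 on that scale, close to the ribosomal protein genes. That scale had to raise the scallop log2 fold changes, because the ribosomal protein genes were listed with higher ventricular values. In snail no ribosomal protein gene was listed, so that rescaling could not be made there, and the median of the members was −1.23 as deposited, −1.06 with TMM and −1.35 with quantile normalization.

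**Figure D5:**
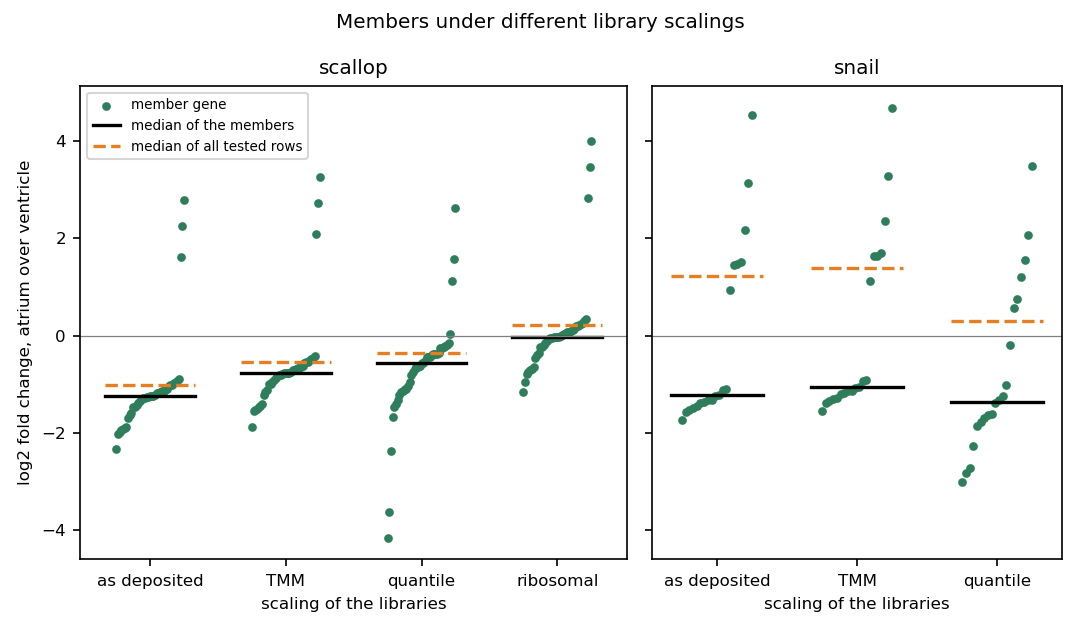
Log2 fold change of atrium over ventricle of each tested member (green points) in scallop (41 genes) and snail (20 genes) under each scaling of the libraries, with the median of the members (black) and of all tested rows (orange, dashed). In scallop the members' median is −1.24 as deposited and −0.016 with the ribosomal rescaling, a little below the median of all rows each time, while in snail it stays between −1.35 and −1.06.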

How the data were processed

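RNA from whole heart chambers was sequenced in 12 libraries, 3 per chamber and species. Per the submitters' processing notes, DESeq2 1.20.0, StringTie 1.3.3b, featureCounts 1.5.0 and HISAT2 2.0.5 belonged to the pipeline; the genome build, annotation and strand setting are not given in the sources used here. The deposited tables hold normalized counts, a signal that the authors made by dividing read counts by a size factor per library. They also hold the authors' log2 fold change, which runs ventricle over atrium, its standard error and test statistic (a score), and the authors' p-value and adjusted p-value. All listed rows have an unadjusted p under 0.05 and at least a 2-fold change. Whole reads could be recovered from 100% of values (tolerance 0.01 reads).

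Members and lists were chosen with earlier results of these data known. Values were tested as log2(normalized count + 1) with limma 3.58.1 (R 4.3.3, mean-variance trend) on all rows of a species with a mean of at least 10, with Benjamini-Hochberg adjustment over those rows. The plan had foreseen edgeR if the tables held raw counts, but they are size-factor scaled, so limma was used as the plan provides. Symbols in both tables (case ignored, copy of highest mean) were tested for a species by chamber interaction. On recovered reads edgeR 4.0.16 called 3307 scallop and 1322 snail rows and DESeq2 1.42.0 called 3668 and 1374, against 3440 and 1249 with limma. Other alternatives were scaling, filter, pseudocount (0.5 and 5), trend, replicate block and leaving out each library. The code was tested on simulated data. Library values were named for, in each role, the member of highest mean, those of largest change among the called, and symbols in both species, and further members were added after their values were seen. From other lists, the called genes of highest mean or largest change were named. An item of these lists is not reported here. Gene length was not used, so levels are not compared between genes. Reads of near-identical copies may have been shared among them or divided.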

Additional observations from a re-analysis of the deposited data

Results flagged for a closer look

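CALR and FKBP14, both folding factors of the endoplasmic reticulum, passed the species by chamber interaction. Every listed row had at least about a 2-fold change in its own species, so symbols listed in opposite directions had to differ widely. Passing is therefore a description and not independent evidence of a species difference. The scallop minus snail difference of log2 fold change was −2.28 for CALR (limma adjusted p = 0.0139) and passed under 19 of 20 alternative settings. In scallop, CALR was higher in the ventricle, and in snail every atrium stood above every ventricle, without passing. The same difference was −2.48 for FKBP14 (limma adjusted p = 0.0156) and passed under 17 of 20. In snail FKBP14 was higher in the atrium, and in scallop its ventricular values were higher without passing. In snail both were highest in atrium 3. The summed hemocyte markers were highest there too, but only with MRC1 counted, and in atrium 2 without it, and the part of those cells was not tested.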

How the results depend on the processing

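The scaling of the scallop libraries moved the results most, although the other scalings were computed only on rows selected for a chamber difference. Ventricular calls numbered 30 as deposited, 8 with TMM, 12 with quantile normalization and 0 with the ribosomal rescaling, at medians of −1.24, −0.77, −0.57 and −0.016, and atrial calls numbered 1 under quantile normalization. Snail atrial calls numbered 3 under quantile normalization. Over all scallop rows the calls numbered 3440 as deposited, 2105 under quantile normalization, 1800 after the ribosomal rescaling, 1877 without atrium 1 and 1808 without atrium 2. Over all snail rows they numbered 1249 as deposited and 961 to 1282 with 1 library left out. With 1 library left out, scallop calls ranged over 13 to 36 toward the ventricle and 1 to 3 toward the atrium (median −1.58 to −1.02), snail calls over 8 to 11 and 3 to 7 (median −1.39 to −1.04), and symbols differing between species over 1 to 2, with 1 without snail atrium 3. The cause was not tested. The filter, pseudocount, trend, edgeR and DESeq2 kept every count within 1.5 times. The ribosomal rescaling could not be made in snail, where 0 such genes were listed.

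After the ribosomal rescaling the log2 fold change turned to 0.087 for DNAJC17, 0.062 for PFDN2, 0.27 for PFDN4, 0.012 for PFDN5, 0.30 for PFDN6, 0.20 for FKBP14, 0.077 for PPIA (Miz0230010.1), 0.21 for PPIB, 0.21 for Ppib, 0.35 for CANX, 0.089 for P4HB, 0.25 for PDIA5, 0.12 for GPX2, 0.14 for PRDX5 and 0.046 for TXNL1. The ribosomal rescaling had to raise these values, because the ribosomal protein genes were themselves listed with higher ventricular values. Quantile normalization turned PFDN6 (0.030) and snail HSPA13 (−0.19). Among scallop minus snail differences, none of which had passed, the sign turned under TMM scaling for MSRA (0.026) and PRX5 (0.22). Under quantile normalization it turned for DNAJC15 (1.61), GPX3 (0.021), MSRA (0.10), PRX5 (0.64) and SOD2 (0.24). After the ribosomal rescaling it turned for CAT (0.64), DNAJC15 (0.78), GPX3 (0.34), MSRA (0.97), PRX5 (1.16) and SOD2 (0.78). With 1 library left out, these differences ranged over −1.32 to 0.0017 for CAT, −0.99 to 0.55 for DNAJC15, −2.13 to 0.69 for GPX3, −0.63 to 0.11 for MSRA, −0.032 to 0.71 for PDIA5, −0.18 to 0.89 for PFDN4 and −0.21 to 0.022 for PRX5.

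Same-numbered atria and ventricles did not deviate together (correlations of −0.13, −0.16 and −0.12 in scallop and −0.06, −0.09 and 0.06 in snail). These are deviations from means of only 3 libraries, so they cannot show whether same-numbered libraries were paired, and the labels do not say. With a replicate block 3 scallop members passed toward the atrium and 29 toward the ventricle, and in snail 4 and 10, and 2 symbols differed between the species. The limit on low values kept 3 snail members out of the test. Without it MSRA (Afu017323) passed toward the atrium (adjusted p by limma = 0.00283, with no fold given because every ventricle was at 0). P4HB passed too (log2 fold change 2.72, adjusted p by limma = 0.0274), and PDIA5 (Afu017479) did not (−1.56, adjusted p by limma = 0.166).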

Other observations

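The ratio of SOD2 to CAT within a library is not moved by multiplying a library by a constant, though quantile normalization can move it. In scallop it was 13.9, 10.6 and 20.9 in atria and 561, 131 and 70.9 in ventricles. In snail, with SOD2 copy Afu006098, it was 1.23, 0.663 and 0.527 in atria and 9.57, 8.16 and 11.6 in ventricles, and with copy Afu022535 it was 0.657, 0.245 and 0.28 in atria and 6.37, 4.32 and 5.84 in ventricles. Every ventricle stood above every atrium in both species. The ratio was picked after the values were seen and was not tested, and a ratio shows unequal change of the genes, not which of them changed.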
